A study of Rattus norvegicus with 105 samples.

Results

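The aminoacyl-tRNA synthetase genes were followed in cultured primary rat hepatocytes exposed to nitroalkanes. The members were every detector probe whose gene symbol has the form of a synthetase (an amino acid letter followed by ars, with or without a closing digit, plus the phenylalanyl subunits Farsa, Farsb and Fars2 and the fused Eprs). This gave 33 probes of 31 genes in a table of 22253 probes and 20946 symbols. Of these, 17 probes of 16 genes belong to the cytosolic enzymes and 16 probes of 15 genes to the mitochondrial enzymes, whose symbols end in 2. Vars and Nars2 each have 2 probes, and every other member has 1.

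Hepatocytes of female Sprague-Dawley rats, from a single commercial cell lot, were grown on collagen-coated plates and exposed for 24 hours. RNA was read with TempO-Seq, an assay that ligates adjacent detector probes on each target RNA and counts the amplified products. There were 35 groups of 3 libraries. Set 1 (72 libraries) held nitromethane and nitroethane at 8 concentrations from 0.003 to 10 mM, plain medium, DMSO and the reference compounds: CITCO (10 µM or 20 µM), rifampin (20 µM or 40 µM), benzo[a]pyrene (50 µM) and WY14643, labelled WY140. Set 2 (33 libraries) held 1-nitropropane at the same 8 concentrations, its own medium and DMSO wells, and WY14643. Titles and protocol disagree on the DMSO amount (0.5 in titles, 0.2% in the protocol) and on the nitroalkane unit (µM and mM), and mM is used here. The labels also disagree on the dose of WY14643 in set 2, so no dose is given, and the WY14643 groups of the sets may differ in dose. All groups share the cell lot and the culture medium with serum and insulin, and the labels do not say whether nitroalkane wells also held DMSO. With 1 lot of cells, the p-values rest on how much wells vary and say nothing of variation among animals. Medium wells lay in row A of the plates and DMSO wells in row B, so these controls differ in position too.

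An aminoacyl-tRNA synthetase joins an amino acid to its matching transfer RNA, the step that fixes the genetic code before the ribosome reads it. Mammalian cells keep separate nuclear genes for most cytosolic and mitochondrial enzymes, and Kars is an exception that serves both compartments. Several cytosolic enzymes sit in a multisynthetase complex held by scaffold proteins, and many cytosolic synthetase genes are known targets of ATF4, the transcription factor that is translated when amino acids run short or the endoplasmic reticulum is stressed. Liver cells use these enzymes heavily because they secrete large amounts of plasma protein.

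Hepatocyte markers were high throughout, with Alb, Ttr, Apoa1, Tf, Serpina1 and Hnf4a summing to 13400 to 14460 CPM (counts scaled to the library total) in DMSO wells of set 1. Stellate, endothelial, lymphocyte and erythroid markers were at or near 0, and Kupffer markers summed to 14.25 CPM at most. The cholangiocyte list (Krt19, Krt7, Epcam and Sox9, 5 probes) summed to 218.6 to 1214 CPM in every library, although Krt7 probes had a median of 0 in several groups. Library totals ran from 5475419 to 11122665 counts (median 8680678), so 3 counts correspond to 0.27 to 0.548 CPM. Replicate 3 of 10 mM nitromethane, replicate 1 of 3 mM nitromethane and replicate 3 of 10 mM 1-nitropropane had the lowest correlations with their own groups (0.891, 0.893 and 0.907). Replicate 2 of 10 mM nitroethane had counts on 21627 probes, against a median of 13792. Results that rest on these libraries are given with and without them. A level here is per probe, and levels of different genes are not compared because each probe has its own efficiency.

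The promoters of the synthetases were searched for one short pattern. The 8-base pattern TGATGNAA, the core of the C/EBP-ATF element through which ATF4 acts, was searched on both strands from 250 bases before to 50 after the transcript start in RefSeq promoters (GRCr8). It was found in 5 of 14 cytosolic promoters and in 0 of 14 mitochondrial promoters, against 3.98% of all 33469 promoters of the same length. The stretches around each match are shown because the members with and without one can then be followed through the results. Capitals mark the match, which in each case lies on the opposite strand and therefore reads as its reverse complement.
Mars1, chr7:65023754-65023813, minus strand: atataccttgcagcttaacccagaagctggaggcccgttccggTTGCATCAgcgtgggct
Tars1, chr2:62114803-62114862, minus strand: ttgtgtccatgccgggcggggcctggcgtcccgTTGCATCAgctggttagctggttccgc
Iars1, chr17:15193653-15193712, minus strand: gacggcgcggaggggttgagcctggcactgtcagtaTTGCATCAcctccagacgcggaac
Aars1, chr19:55908342-55908401, plus strand: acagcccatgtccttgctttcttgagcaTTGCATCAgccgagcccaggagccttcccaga
Aars1, chr19:55908482-55908511, plus strand: cgggtcactTTTCATCAgagcgctctgatt
Cars1, chr1:208225334-208225363, minus strand: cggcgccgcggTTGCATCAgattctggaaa
The matches began 17, 27 and 24 bases before the start in Mars1, Tars1 and Iars1. They began 112 before and 10 after it in Aars1, and 18 after it in Cars1. The other 9 cytosolic promoters, among them those of Eprs, Wars, Sars, Vars and Lars, gave no match in this window. Other ATF4 pathway genes, some of them named at the end of these results, were searched alike where a promoter entry existed. Of these only Trib3, Chac1, Pycr1, Pck2, Nupr1, Slc7a1 and Fgf21 gave a match, and Asns and Ddit3 were among those without one. The share of this list with a match is not set beside the 3.98% of all promoters. A match is a string of letters and was not tested for binding. In medium against DMSO of set 1, described next, the 5 genes with a match had log2 changes of 0.32 (Aars), 0.26 (Tars), 0.23 (Iars), 0.05 (Cars) and -0.03 (Mars), of which Aars alone was called.

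The clearest pattern was a difference between the control wells themselves. The cytosolic genes Aars, Eprs, Sars, Vars and Wars were higher in plain medium than in DMSO, and these 5 were called in both sets. In set 1, 6 of 17 cytosolic probes rose in medium against DMSO and 0 fell, while 3.19% of all 12102 probes tested rose and 3.88% fell. The median log2 change was 0.231 for cytosolic probes, -0.123 for the 15 mitochondrial probes tested and 0.006 for all probes. Without Kars, whose gene serves both compartments, and Qars, which has no mitochondrial partner, the cytosolic median was 0.264. No mitochondrial probe was called by edgeR or by DESeq2, and 1 had an unadjusted p under 0.05. In set 2, 6 of 17 cytosolic probes rose and 1 fell, against 11.6% rising and 12.4% falling among all 11538 probes. There the medians were 0.066 for the cytosolic and 0.069 for the mitochondrial probes. Calls are from edgeR's quasi-likelihood test with Benjamini-Hochberg adjustment over all probes, at 0.05. These are RNA shares of whole wells, in which fewer cells and less RNA per cell cannot be told apart.

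Eprs, which encodes the fused glutamyl- and prolyl-tRNA synthetase, read 707.5, 746.5 and 822.2 CPM in the DMSO wells of set 1 and 1111, 1155 and 1109 in the medium wells. In set 2 it read 835.2, 823 and 838.1 CPM in DMSO and 1208, 1274 and 1536 in medium. The groups did not overlap in either set. The log2 change was 0.53 (SE 0.078, edgeR adjusted p = 3.2e-05) in set 1 and 0.60 (SE 0.128, adjusted p = 0.00246) in set 2. Wars, the tryptophanyl enzyme, went from 52.92, 52.88 and 57.43 CPM in DMSO to 81.07, 83.69 and 86.55 in medium of set 1. Its set 2 levels were 65.6, 65.08 and 66.81 in DMSO and 110.9, 117.7 and 140.4 in medium. Again every medium well was above every DMSO well, with log2 changes of 0.58 (SE 0.117) and 0.81 (SE 0.13).

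Sars, the seryl enzyme, read 32.32, 32.72 and 39.59 CPM in DMSO and 50.33, 58.76 and 48.97 in medium of set 1. In set 2 the values were 33.34, 42.49 and 41.63 in DMSO and 60.43, 86.37 and 94.87 in medium. The log2 changes were 0.55 (SE 0.139) and 0.95 (SE 0.187). Vars (the probe with the higher counts), the valyl enzyme, read 48.66, 52.07 and 66.35 CPM in DMSO and 75.04, 81.06 and 80.51 in medium of set 1, and Aars, the alanyl enzyme, 250, 242.8 and 306.9 against 353.6, 315.8 and 357.6. All 3 genes kept medium above DMSO in every well of set 1. In set 2 the log2 changes were 0.79 (SE 0.144) for Vars and 0.59 (SE 0.131) for Aars.

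Lars, the leucyl enzyme, was called in set 1 only, where DMSO wells read 291.6, 285.3 and 294.3 CPM and medium wells 403.2, 380.5 and 424.4 (log2 change 0.43, SE 0.072). In set 2 its wells overlapped, and the change was 0.09 (SE 0.106). The test of the difference between the sets for Lars gave -0.35 (SE 0.128, edgeR adjusted p = 0.155), which did not pass. No member was called for that difference, although 1 cytosolic and 2 mitochondrial probes had an unadjusted p under 0.05 and 1.03% of all 11759 probes were called.

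Other members moved less or in a single set. Qars, the glutaminyl enzyme, rose in set 2 (log2 0.35, SE 0.119). Mars, the methionyl enzyme, read 6.453, 7.268 and 5.525 CPM in DMSO of set 2 and 2.372, 1.591 and 5.658 in medium, so its groups overlapped. Its log2 change of -1.12 (SE 0.382) was called in the full fit but lost with library totals in place of trimmed-mean scaling, and lost without any 1 of the 6 wells other than medium replicate 6. Cars2, the mitochondrial cysteinyl enzyme, read 3.943, 3.914 and 2.698 CPM in DMSO and 9.487, 8.183 and 5.658 in medium of set 2 (1.03, SE 0.288), without overlap. Wars2 (0.56) and Fars2 (0.42) also rose and Lars2 fell by 0.67. That is 4 of 15 mitochondrial probes, where 24% of all probes were called, so the share is near the background. Of these 4 mitochondrial genes Wars2 was called whichever well was left out, and Cars2 in every case but without DMSO replicate 6. Cars, Dars, Kars, Rars, Farsa, Farsb, Tars and Iars were not called in either set, with log2 changes from -0.11 to 0.26.

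How firmly the set 1 calls stand depends on single wells. Eprs, Lars and Wars were called whichever of the 6 wells was left out, whereas Aars, Sars and Vars were all lost without DMSO replicate 1 and without DMSO replicate 2, which left 3 calls. Leaving out a medium well also ended the Vars call each time, that of Aars for replicates 1 and 3, and that of Sars for replicate 2. In set 2 Aars, Eprs, Sars, Vars and Wars were called whichever well was left out. The summed level of the 6 hepatocyte markers moved the other way, from 13400 to 14460 CPM in DMSO to 8339 to 10340 in medium of set 1. The cholangiocyte list moved with the synthetases, from 540.6 to 621 CPM in DMSO to 626.7 to 720.8 in medium of set 1, and from 610.5 to 738.6 to 842.2 to 1001 in set 2. The part of these shifts in the result was not tested. DMSO and plate row cannot be told apart in these controls. The nitroalkane wells of row B (0.01 mM) read 780.5 to 1178 CPM for Eprs in set 1, with 5 of 6 above every DMSO well, and 1106 to 1242 in set 2, with all 3 above.

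**Figure D1:**
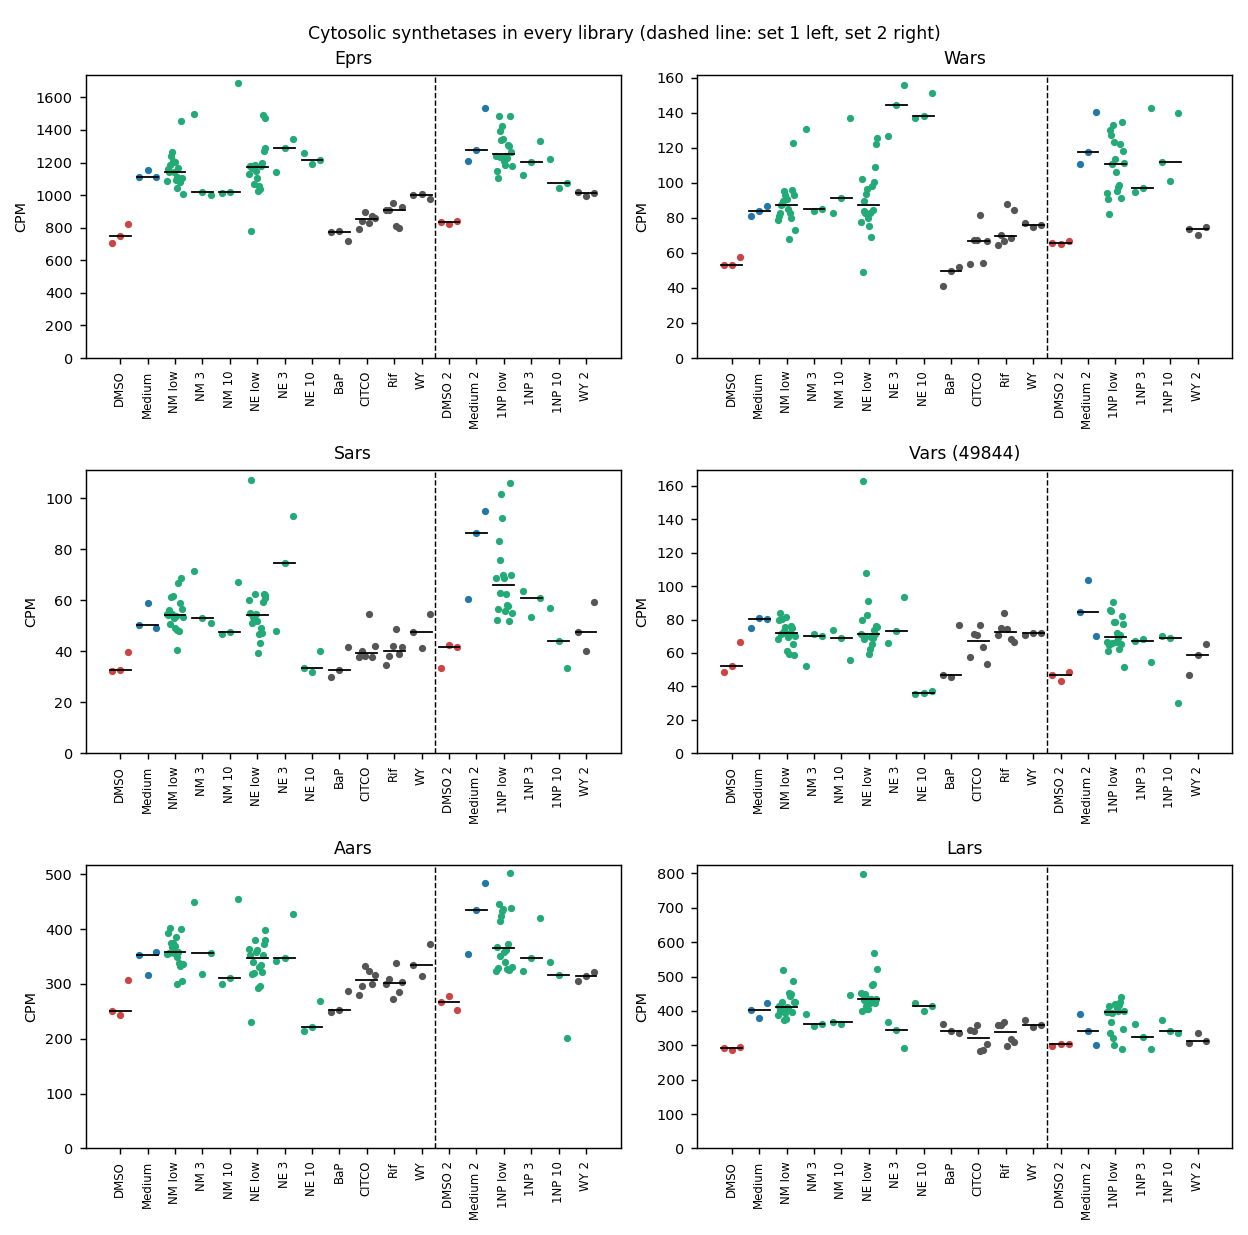
CPM (vertical axis, from 0) of 6 cytosolic synthetases in every library, by group along the horizontal axis; points are libraries, horizontal bars are medians, "low" pools the concentrations from 0.003 to 1 mM, and the dashed line divides set 1 from set 2. DMSO wells (red) lie below medium wells (blue) for Eprs, Wars, Sars, Vars and Aars in both sets, most nitroalkane wells up to 1 mM (green) lie above DMSO, and most reference compound wells (grey) lie below medium.

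In the treated groups, too, cytosolic probes were called more often against DMSO than mitochondrial probes. In the controls of set 2 the class medians were 0.066 (cytosolic) and 0.069 (mitochondrial), so the classes were not divided there. Against DMSO, cytosolic probes rose in 73 of 527 tests over the 31 treated groups and fell in 3. That is 13.9% rising, where all probes rose in 1.96% and fell in 2.21% of tests. Mitochondrial probes rose in 3 and fell in 3 of 465 tests, or 0.645% each way. A median count under 50 was found for 11 of 16 mitochondrial and 2 of 17 cytosolic probes, so mitochondrial changes were less detectable. Against medium, cytosolic probes rose in 5 and fell in 21 tests, and mitochondrial probes rose in 7 and fell in 3, where all probes rose in 2.08% and fell in 1.87%. Groups of a set share their 3 control wells, so these tests are not independent and a shift of those wells enters all of them.

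Eprs rose in 21 of the 31 groups against DMSO, Wars in 18, Sars in 12 and Lars in 10. Aars rose in 4 and Vars in 3. Against medium none of these 6 rose in any group except Wars, which rose in 2. Farsa, Dars, Kars, Rars and the second Vars probe were not called in any treated group against either control, and neither were Aars2, Hars2, Pars2 or either probe of Nars2. Tars2 could not be tested, since it had 0 counts in 99 libraries and at most 3 in any.

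In the 18 nitroalkane groups from 0.003 to 1 mM, cytosolic probes rose in 49 and fell in 1 of 306 tests against DMSO (16% rising), where all probes rose in 1.62% and fell in 1.86%. Mitochondrial probes rose in 1 and fell in 2 of 270. Against medium no cytosolic or mitochondrial probe was called by edgeR, where all probes rose in 0.0213% and fell in 0.00954% of tests. At an unadjusted p under 0.05 there were 27 of 306 cytosolic tests, 22 of them higher, and 33 of 270 mitochondrial tests, 18 of them higher. Here and elsewhere in these results, unadjusted counts were made for members only. They have no share of all probes at that threshold beside them, so nothing is concluded from them. The cytosolic median against DMSO was between 0.129 and 0.463 in these 18 groups and exceeded the mitochondrial median in 16. Against medium it was between -0.107 and 0.119 and exceeded the mitochondrial median in 7.

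Wars shows this in single wells. The 36 low-concentration wells of nitromethane and nitroethane had a lowest value of 48.94, a median of 87.51 and a highest value of 125.6 CPM, and 35 were above every DMSO well of set 1. Relative to the medium wells, 19 were above all and 9 below all. For Lars all 36 wells, between 372.6 and 799.1 CPM with a median of 426.1, were above every DMSO well. In the 18 low-concentration 1-nitropropane wells Wars lay between 82.13 and 134.5 CPM (median 110.9), above every DMSO well of set 2 in all 18. The highest Lars value came from replicate 3 of 0.01 mM nitroethane, a library whose correlation with its group was 0.947. Summed over the 6 low concentrations, cytosolic calls against DMSO numbered 19 for nitromethane, 13 for nitroethane and 18 for 1-nitropropane. Without DMSO replicate 1 of set 1 they numbered 6 and 5 for the first pair, and without DMSO replicate 2 they numbered 5 and 7. Without DMSO replicate 4 of set 2 there were 11 for 1-nitropropane.

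**Figure D2:**
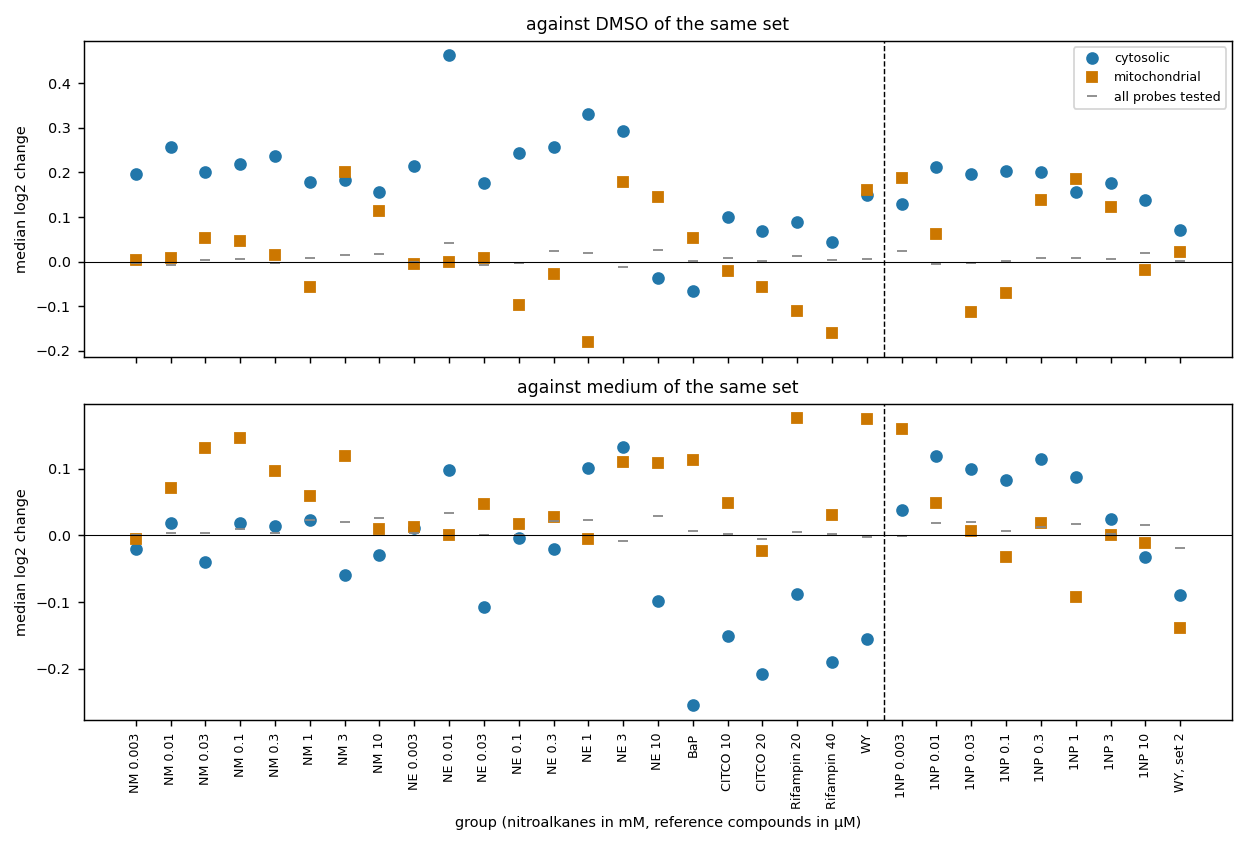
Median log2 change (vertical axis) of the cytosolic probes (circles), the mitochondrial probes (squares) and all probes tested (dashes) in each treated group, against DMSO above and medium below; the dashed line divides set 1 from set 2. Cytosolic medians against DMSO run from -0.036 to 0.463 over the nitroalkane groups, and against medium from -0.107 to 0.133.

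In the reference compound groups every cytosolic call against medium was a fall. DMSO wells were also below medium for several of these genes, and the part of that control difference in the falls was not tested. Over their 7 groups cytosolic probes rose in 3 and fell in 0 of 119 tests against DMSO, where all probes rose in 1.32% and fell in 1.62%. Against medium they rose in 0 and fell in 16, or 13.4%, where all probes rose in 4.55% and fell in 4.44%. All 18 reference wells of set 1 read less Eprs (716.5 to 1006 CPM) than every medium well, and 12 read more than every DMSO well. The 3 rises were Lars with rifampin at 20 µM (0.27, background 1.1%), Wars with rifampin at 40 µM (0.48, background 0.545%) and Eprs with WY14643 of set 1 (0.28, background 2.35%). Benzo[a]pyrene, an activator of the aryl hydrocarbon receptor, accounted for 8 of the 16 falls, in 8 of 17 cytosolic probes, where 10.4% of all 12102 probes fell against medium. Eprs was 774.5, 776.9 and 716.5 CPM with benzo[a]pyrene, below all medium wells (log2 -0.59, SE 0.078, edgeR adjusted p = 1e-06). Wars was 40.84, 49.58 and 51.67 CPM (-0.84, SE 0.118). The Eprs wells lay among the DMSO wells and the Wars wells below them. Sars (-0.63), Vars (-0.51), Tars (-0.47), Aars (-0.40), Iars (-0.37) and Lars (-0.23) fell as well. The 8 held 3 of the 5 genes with a TGATGNAA match (Tars, Aars and Iars), and Eprs, Wars, Sars, Vars and Lars, which had none. Among the cytosolic promoters searched, 5 of 14 had a match. Against DMSO, where 9.17% of probes were called, no cytosolic probe was called for benzo[a]pyrene by edgeR and 3 had an unadjusted p under 0.05. There 1 mitochondrial probe, Wars2, fell by 0.37.

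Among the mitochondrial probes Vars2 (0.88, SE 0.247) and Ears2 (0.86, SE 0.271) rose with benzo[a]pyrene against medium, and Wars2 (-0.49) and Fars2 (-0.45) fell. With 9.3% of all probes rising, 2 of 15 is near the background. With CITCO, Eprs was lower than in medium at 10 µM (-0.40, where 0.744% of probes fell), and Eprs and Lars were lower at 20 µM (-0.38 and -0.45, where 7.42% fell). Eprs and Lars were also lower with rifampin at 40 µM (-0.45 and -0.42, where 1.88% fell). With WY14643 of set 2, Wars (-0.69), Sars (-0.66) and Vars (-0.52) fell against medium, where 8.02% of probes fell. With WY14643 of set 1 edgeR called no member against medium, where 5.8% of probes were called and 2 cytosolic and 3 mitochondrial members had an unadjusted p under 0.05. Whether these compounds differ from one another was not tested.

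At 10 mM nitroethane against medium, Wars, Farsb and Mars rose and Vars, Aars and Cars fell among the cytosolic genes, and Ears2 and Rars2 rose among the mitochondrial genes. In all 9 of 32 probes tested were called, where 34% of all 12339 probes were called, 16.6% up and 17.4% down, so the share of members called is near the background. The 9 genes were called whichever of the 6 wells was left out, including replicate 2 with its many low-count probes. The medians were -0.098 for cytosolic and 0.109 for mitochondrial probes, against 0.029 for all.

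Vars read 35.16, 36.22 and 37.51 CPM at 10 mM nitroethane, and 75.04, 81.06 and 80.51 in medium. All 3 wells were also below every DMSO well (48.66 to 66.35). The log2 change against medium was -1.12 (SE 0.235, edgeR adjusted p = 0.000518) and against DMSO -0.67 (SE 0.239, adjusted p = 0.0355), where 28.9% of probes were called. The call against DMSO was lost without DMSO replicate 2 or 3 or without nitroethane replicate 1 or 2. Cars, the cysteinyl enzyme, read 80.34, 70.17 and 71.91 CPM, below every medium (112.7, 103.7 and 127.2) and DMSO (104.3, 103.6 and 113.7) well. Its change was -0.62 (SE 0.128) against medium and -0.58 (SE 0.124) against DMSO, and both calls held whichever well was left out. Aars read 213.8, 221.8 and 269.2 CPM and was called only against medium (-0.54, SE 0.13), since its DMSO wells (242.8 to 306.9) overlapped.

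Wars rose to 136.7, 138.3 and 151.3 CPM, the log2 change being 0.76 (SE 0.149) against medium and 1.33 (SE 0.15, edgeR adjusted p = 1.72e-07) against DMSO. It was the cytosolic member that moved away from both controls at 3 mM as well, with 126.9, 144.3 and 156 CPM (0.84, SE 0.149 against medium), and there it was the only member called against medium, where 11.5% of all probes were called. Against DMSO at 3 mM, where 3.06% of probes rose, Wars (1.41), Sars (1.06), Eprs (0.75) and Aars (0.50) rose. Farsb, the beta subunit of the phenylalanyl enzyme, read 169.2, 145.8 and 155.5 CPM at 10 mM, above all medium wells (106.6, 107.5 and 112.2), a change of 0.54 (SE 0.131). Farsa, which encodes the alpha subunit of the same enzyme, read 69.2, 72.3 and 65.58 against 75.38, 71.28 and 72.88 (-0.09, SE 0.126). The 2 subunits of one enzyme thus had different values, and their difference was not tested.

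Mars rose most in fold but from few counts: 10.65, 10.52 and 4.883 CPM against 2.32, 2.38 and 1.367 in medium (log2 2.08, SE 0.388, edgeR adjusted p = 0.00014). Its median count over all libraries was 28. Sars read 33.43, 31.96 and 40.06 CPM, below all medium wells, and missed the threshold (-0.58, SE 0.238, adjusted p = 0.0628). Eprs read 1257, 1192 and 1216 CPM, above every control well, with a change of 0.12 (SE 0.115) against medium that was not called and 0.64 (SE 0.115) against DMSO that was. Lars, Iars, Tars, Dars, Rars, Kars and Qars were not called against medium, with values from -0.35 for Kars to 0.23 for Dars.

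The mitochondrial genes Ears2 and Rars2 rose from low counts. Ears2, the mitochondrial glutamyl enzyme, read 6.933, 16.11 and 9.987 CPM at 10 mM nitroethane against 4.871, 4.259 and 2.391 in medium (log2 1.47, SE 0.38). Rars2, the arginyl enzyme, read 6.809, 8.655 and 6.991 against 3.943, 2.255 and 3.302 (1.22, SE 0.329). Neither gene overlapped with its medium wells. Of the 15 mitochondrial probes tested 3 rose, where 16.6% of all probes rose, and the class median was 0.109. Summed over the class, the wells read 236.3, 312 and 248.2 CPM, highest in replicate 2, against 229.2, 228.3 and 232.2 in medium. Of the 16 mitochondrial probes, 11 had a median count under 50, against 2 of 17 cytosolic probes, so smaller changes in that class were less detectable at this depth. Against DMSO 2 mitochondrial probes were called, Ears2 (1.17) among them, and 0 to 2 were called when any well was left out, 0 without DMSO replicate 1.

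Hepatocyte markers summed to 5996 to 8095 CPM at 10 mM nitroethane and 8339 to 10340 in medium. The cholangiocyte list summed to 218.6 to 278 and 626.7 to 720.8. Its Krt7 probes had a median of 0 at 10 mM nitroethane, as they did in DMSO of set 1, and 1 of them did in medium. Endothelial markers were at 0 in 2 of the wells and summed to 7.59 in the third, replicate 2. The part of these shifts in the synthetase values was not tested.

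**Figure D3:**
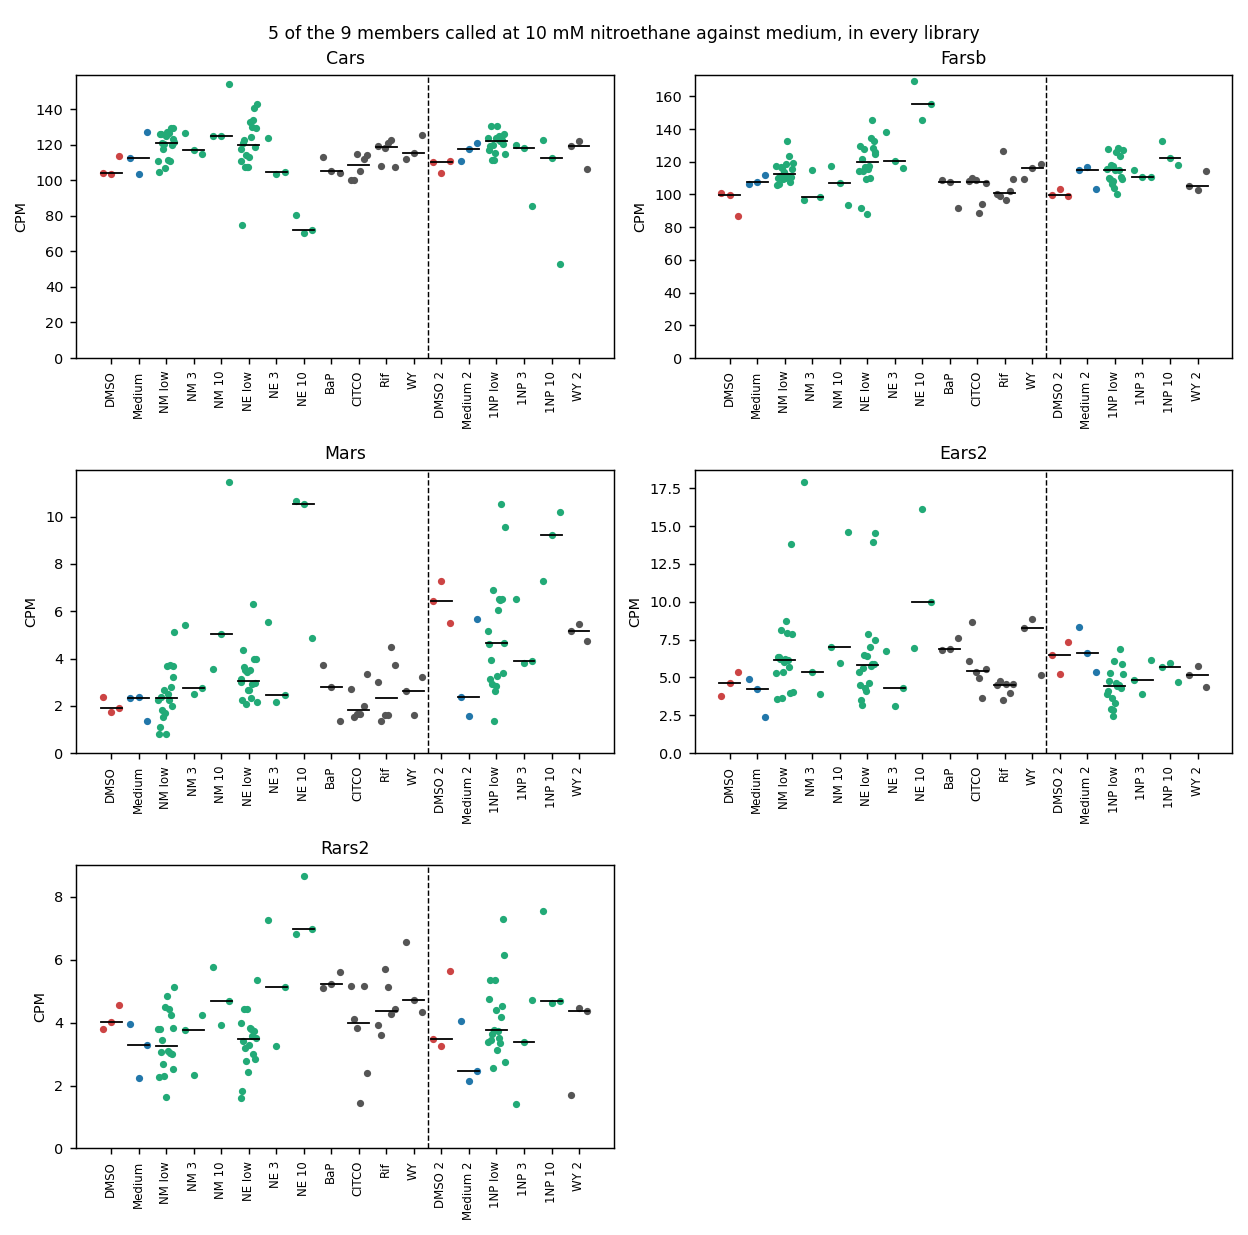
CPM (vertical axis, from 0) of 5 of the 9 members called at 10 mM nitroethane against medium, in every library by group along the horizontal axis; points are libraries, horizontal bars are medians and the dashed line divides set 1 from set 2. Cars lies lowest at 10 mM nitroethane (70.17 to 80.34 CPM) apart from replicate 3 of 10 mM 1-nitropropane (52.96), and Mars, Ears2 and Rars2 lie above all medium wells of set 1 there.

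Nitromethane at 10 mM called no member against medium by edgeR, where 0.662% of all 12231 probes were called. At an unadjusted p under 0.05 there were 2 cytosolic and 2 mitochondrial probes, and DESeq2 called Mars, as did edgeR without nitromethane replicate 1. Mars read 3.549, 5.032 and 11.45 CPM against 2.32, 2.38 and 1.367 in medium, without overlap (log2 1.64, SE 0.451, adjusted p = 0.0996). Against DMSO 6 cytosolic probes rose: Mars (1.60), Wars (0.82), Eprs (0.59), Sars (0.51), Tars (0.34) and Lars (0.33), where 3.94% of probes rose. Replicate 3 was the highest well for each of them (Eprs 1691 CPM against 1014 and 1019; Wars 136.9 against 82.53 and 91.47), and without it only Wars was called. A fit of the 6 libraries alone called 0. Without DMSO replicate 1 there were 3 calls and without DMSO replicate 2 there were 2, with Eprs and Wars in both.

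At 3 mM nitromethane Iars2, the mitochondrial isoleucyl enzyme, was the only member called against medium. It read 73.11, 56.91 and 51.23 CPM against 38.16, 42.47 and 40.77 (0.58, SE 0.123, edgeR adjusted p = 0.00962), with 2.32% of all probes called. The call was lost without replicate 1, the library that stands apart, and without medium replicate 1 or 3. Against DMSO, where 0.491% of probes rose, Wars (0.82), Sars (0.69) and Eprs (0.58) rose at 3 mM. None of these 3 was called without replicate 1, without any 1 of the DMSO wells or in a fit of the 6 libraries alone. In replicate 1 Dars read 15.38 CPM against 75.7 and 54.45 in the others. In replicate 3 of 10 mM nitromethane it read 14.58 against 74.43 and 61.95.

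At 10 mM 1-nitropropane against the medium of set 2, Mars rose and Sars, Cars2 and Aars fell. In all 5 of 32 probes were called, where 10.2% of all 12129 were. Mars read 7.287, 9.228 and 10.19 CPM (log2 1.57, SE 0.448), above the medium wells, although the DMSO wells of that set (6.453, 7.268 and 5.525) were just below it. Sars read 56.95, 43.97 and 33.51 CPM, below all medium wells (-0.78, SE 0.215), and Cars2 read 3.643, 2.578 and 4.218 against 9.487, 8.183 and 5.658 (-1.06, SE 0.327).

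None of the calls at 10 mM 1-nitropropane against medium held whichever well was left out. Replicate 3 read 201.7 CPM for Aars, 52.96 for Cars and 30.23 for Vars. Replicates 1 and 2 read 339.2 and 315.8 for Aars, 122.7 and 112.6 for Cars, and 70.31 and 69.21 for Vars. Cars and Vars were not called here, and for Cars2, which fell, replicate 3 was the highest of the 10 mM wells. Without replicate 3, and in a fit of the 6 libraries alone, no member was called by edgeR. Without medium replicate 5 none was called either. Against DMSO, Wars (0.80, SE 0.157) and Eprs (0.37, SE 0.099) rose, where 1.03% of probes rose, and 0 were called in the 6-library fit. At 3 mM, Wars (0.72) and Eprs (0.51) rose against DMSO, where 0.314% of probes rose, and edgeR called no member against medium, where 0.223% of probes were called and 2 cytosolic and 1 mitochondrial member had an unadjusted p under 0.05.

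The 3 compounds form a series in which the carbon chain grows by a carbon at a time from nitromethane to nitroethane to 1-nitropropane. They were compared at 3 and 10 mM, 6 pairs in all. Nitromethane and nitroethane, which share a set, differed directly at 10 mM in 2 of the members tested, where 11.7% of all 11551 probes differed. Cars was 74.14 ± 5.44 CPM (SD, n = 3) with nitroethane and 134.7 ± 17.1 with nitromethane, a log2 difference of -0.80 (95% interval -1.25 to -0.35, edgeR adjusted p = 0.0352). Vars was 36.29 ± 1.18 and 66.19 ± 9.43, a difference of -0.82 (interval -1.31 to -0.33, adjusted p = 0.0428). Both calls were lost without any one of the nitroethane wells or without nitromethane replicate 1 or 2.

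For Farsb the difference was 0.62 (interval 0.15 to 1.10), which did not pass after adjustment. For Wars it was 0.52 with an interval from -0.005 to 1.04, which holds 0. For Mars it was 0.44, with an interval from -0.68 to 1.56 that spans no difference and a change larger than any called there. No mitochondrial member was called, and the difference for Rars2 was 0.68, with an interval from -0.05 to 1.42 that holds 0. At 3 mM no member was called by edgeR, and 0.0179% of 11168 probes were. At an unadjusted p under 0.05 there was 1 cytosolic probe at 3 mM.

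1-Nitropropane was compared with the others as the difference of the effects, each against the control of its own set, since the compounds lay in different sets. By edgeR no member was called at 10 or 3 mM with either control, and 0% of all probes were. Between 0 and 3 members of a class had an unadjusted p under 0.05. One fit of every library, with medium as control, gave other counts. At 10 mM it called Wars (-0.74) and Ears2 (-1.70) lower with 1-nitropropane than with nitroethane (edgeR adjusted p = 0.0302 for each), among 563 of 12969 probes, and 935 probes against nitromethane. With medium as control, the Wars effect at 10 mM was lower with 1-nitropropane than with nitroethane by 0.76 on the log2 scale (interval -1.32 to -0.21, adjusted p = 0.414). The Vars effect differed by 0.58 (interval -0.16 to 1.31) and the Cars effect by 0.40 (interval -0.32 to 1.12). Against nitromethane the Sars effect differed by -0.80 (interval -1.55 to -0.04, adjusted p = 0.47). The intervals are wide, so the data do not show that the compounds act alike on these genes.

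**Figure D4:**
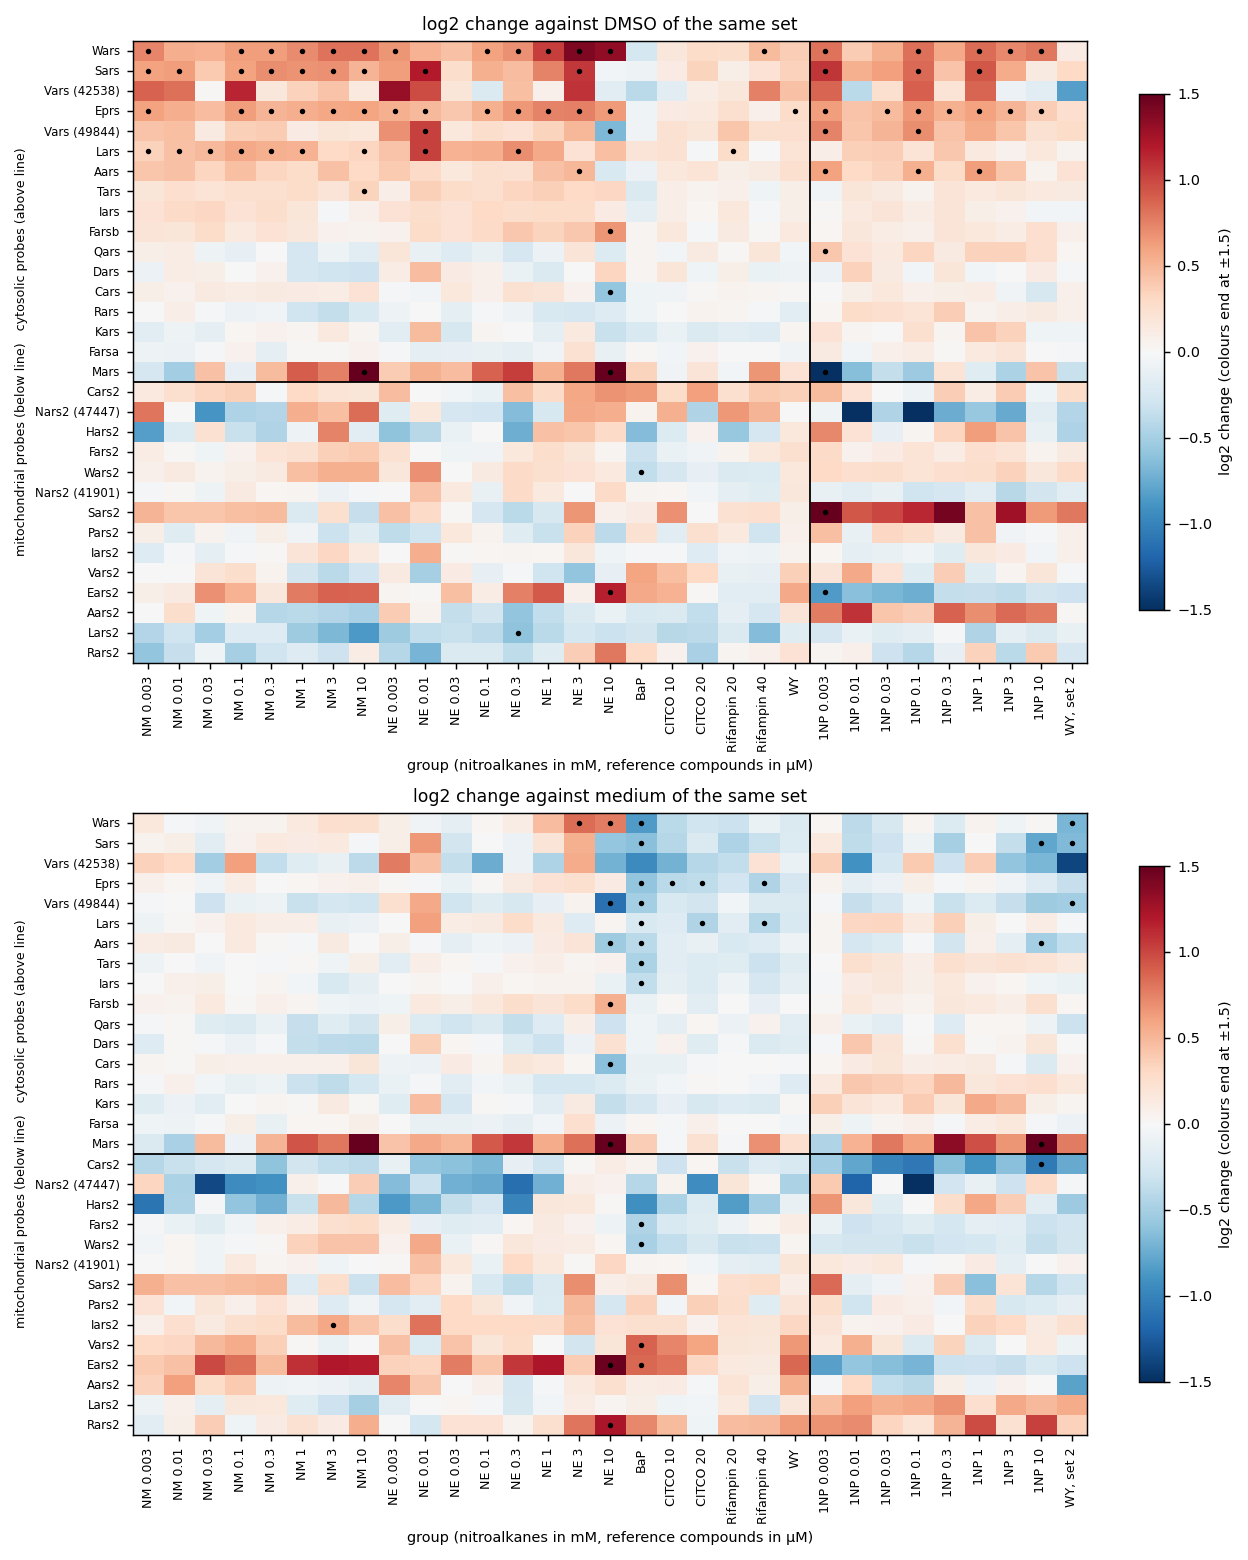
Log2 change (colour, ending at ±1.5) of 31 of the 32 synthetase probes tested (rows, cytosolic above the line and mitochondrial below) in each treated group (columns, set 2 right of the vertical line), against DMSO above and against medium below; dots mark calls by edgeR at 0.05. Against DMSO the dots gather in the rows of Wars, Sars, Eprs and Lars, and against medium they gather at 10 mM nitroethane (8), benzo[a]pyrene (12) and 10 mM 1-nitropropane (4).

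Genes that work beside the synthetases were taken from lists. Of 9 probes for the multisynthetase complex, editing and selenocysteine factors, 0 were called by edgeR for medium against DMSO in set 1 and 1 (Aarsd1, an editing factor) in set 2. At 10 mM nitroethane against medium 3 rose (Tarsl2, a second threonyl enzyme, 1.25; Dtd2 0.75; Sepsecs 0.44) and 1 fell (Aarsd1, -0.39). The scaffold genes Aimp2 (0.24, SE 0.149) and Eef1e1 (-0.32, SE 0.163) were not called. Of 17 probes tested for mitochondrial transfer RNA and translation factors, 2 rose (Mtif2, the initiation factor, 1.63; Gfm1, an elongation factor, 0.69) and Tufm, the main elongation factor of the mitochondrion, fell by 0.53. Of 5 probes for cytosolic elongation factors 0 were called there. That comparison's background is 34%.

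Other genes of the ATF4 pathway also differed between the controls. In medium against DMSO, 12 of 31 probes rose and 0 fell in set 1, and 11 rose and 1 fell of 30 in set 2, where 3.19% and 11.6% of all probes rose. The median log2 changes were 0.449 and 0.391. The list counts 5 probes of Slc7a1 and several of Cebpb, so its probes are not all separate genes. Ddit3, the stress factor CHOP, read 128.7, 138.8 and 134.1 CPM in DMSO and 263.7, 238 and 302.6 in medium of set 1, without overlap (0.96, and 0.93 in set 2). Trib3, a pseudokinase that restrains ATF4 signalling, rose by 0.92 and 0.84, and Chac1, a glutathione-degrading enzyme, by 1.05 in set 1 and by 0.21, not called, in set 2. Asns, the asparagine synthetase, was not called in set 1 (0.56) and fell in set 2 (-0.55).

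At 10 mM nitroethane against medium, 7 of the 31 ATF4 pathway probes rose and 15 fell, where 16.6% of all probes rose and 17.4% fell. Chac1 fell by 2.34 and Ddit4 by 1.04, and Pycr1, a proline synthesis enzyme, rose by 2.04. Ddit3 (-0.06), Trib3 (0.02) and Asns (0.32) were not called. Atf4 RNA itself read 163.4, 171.4 and 156.6 CPM against 234.3, 238 and 237.7 in medium, a fall by 0.54 (SE 0.109), while its rise in medium over DMSO was 0.27 (SE 0.085). With benzo[a]pyrene 4 of the 31 probes rose and 15 fell against medium, where 9.3% of all probes rose and 10.4% fell. Counts of this list against DMSO are not given here for either compound. Part of the list was already higher in medium than in DMSO, and the share of that control difference in these falls was not tested.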

How the data were processed

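The deposited table holds the authors' raw read counts, 1 row per detector probe and 1 column per library, with no normalization. Per the submitters' processing notes FastQC, Bowtie, R 3.5.3 and DESeq2 1.28.1 were used, with no role given for each, and the genome build is not given in the sources used here. The labels name a human panel, while the symbols are those of rat genes. All 31 member symbols matched the RefSeq rat gene table. Counts were scaled to CPM by library totals. Tests used edgeR 4.0.16 in R 4.3.3 (quasi-likelihood, robust, trimmed-mean scaling, filterByExpr with a minimum count of 10), with Benjamini-Hochberg adjustment over all probes kept and a threshold of 0.05. A fit held the 8 concentrations of a compound with 1 control (27 libraries), or the controls and reference compounds of a set (24 and 9). The SE of a log2 change was taken from its F statistic. Alternatives were DESeq2 1.42.0, its size factors, no filter, a replicate block, fits of fewer or more libraries, and leaving out each replicate of the controls and of the 3 and 10 mM groups. No well at a lower concentration was left out. Scaling by library totals was chosen after seeing the data. So was leaving out control wells for the low concentrations, and wells in the direct nitroethane and nitromethane comparison. Scripts were tested on simulated data. Libraries of a group differed by more than sampling noise (smallest chi-square per degree of freedom 2.82), and floors cover counting error only. Intervals of a difference use the quantile of the t distribution at the fit's degrees of freedom and hold the spread between wells. Members, gene lists and rules were chosen with earlier results of these data known. By rule, values in every library were given for up to 6 cytosolic and 4 mitochondrial members called for 10 mM nitroethane against medium, and for the 3 with the largest change among those called in 10 mM nitromethane and 10 mM 1-nitropropane against medium and in medium against DMSO. Asns, Ddit3, Trib3, Chac1 and the scaffold genes were also set by rule, and library values of other genes were chosen after they were seen. Formaldehyde wells and synthetase genes outside the rule were not analysed here. Dars and Rars have no promoter entry. The values of 1 member are not reported here, though class counts and medians hold it.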

Additional observations from a re-analysis of the deposited data

How the results depend on the processing

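No called member changed sign under any alternative, and single members kept their side of the threshold in 1116 values of the alternatives other than leaving out a replicate, with 52 calls lost and 16 gained. Leaving out a replicate kept 943 such values and gained 8 calls, and in 9.94% of the values the call was lost. The cause of the shifts below was not tested. Counts are of members called and medians are of log2 change.

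With library totals for scaling, the medians in medium against DMSO were 0.275 (cytosolic) and -0.08 (mitochondrial) in set 1 and 0.186 (mitochondrial) in set 2. The medians for 10 mM nitromethane against DMSO were 0.25 and 0.213, and the cytosolic medians for 3 mM 1-nitropropane were 0.218 against DMSO and -0.065 against medium. Calls numbered 1 mitochondrial for 10 mM 1-nitropropane against medium, 23 cytosolic and 0 mitochondrial for low nitroethane against DMSO, 1 mitochondrial for low 1-nitropropane, and 8 cytosolic and 0 mitochondrial for the reference compounds against DMSO. With DESeq2's size factors, and with DESeq2, the cytosolic median for 10 mM nitromethane against DMSO was 0.165, and DESeq2 called 1 cytosolic member against medium.

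Without a filter on low counts, the mitochondrial medians were -0.079 for medium against DMSO in set 1 and 0.145 for 10 mM nitromethane against medium, and the cytosolic median for 10 mM nitroethane against medium was -0.133. Cytosolic calls against DMSO were then 3 and 1 for nitromethane at 10 and 3 mM and 1 for 10 mM 1-nitropropane. Mitochondrial calls were 0 for 3 mM nitromethane against medium, 1 for 10 mM nitroethane against DMSO and 1 for 10 mM 1-nitropropane against medium.

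A fit of the 6 libraries compared gave a cytosolic median of 0.181 for medium against DMSO in set 1, 2 mitochondrial calls in set 2, and a median of 0.208 with 0 calls for 10 mM nitromethane against DMSO. It gave 0 calls for 3 mM nitromethane, for 10 mM 1-nitropropane against either control, and 1 mitochondrial call for 3 mM nitroethane against medium. One fit per set gave 2 cytosolic calls for medium against DMSO in set 1, 3 cytosolic and 1 mitochondrial for 10 mM nitromethane against DMSO, 1 cytosolic against medium, 0 mitochondrial for 3 mM nitromethane against medium and 1 cytosolic for 10 mM 1-nitropropane against DMSO. For low nitroethane it gave 23 cytosolic calls against DMSO, and 2 cytosolic and 1 mitochondrial against medium. For the reference compounds it gave 0 and 0 against DMSO and 0 mitochondrial against medium. One fit of every library gave 6 cytosolic calls for nitroethane minus nitromethane at 10 mM (4453 of all 12969 probes) and 1 at 3 mM (813 probes), and 1 of each class for 1-nitropropane minus nitroethane at 10 mM.

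Leaving out 1 well at a time gave these ranges. Medium against DMSO in set 1 had 3 to 6 cytosolic calls, with medians from 0.173 to 0.231 (cytosolic) and -0.206 to -0.065 (mitochondrial), and set 2 had 1 to 3 mitochondrial calls and medians from -0.124 to 0.104. For 10 mM nitromethane against DMSO, cytosolic calls ran from 1 to 6, with medians from 0.078 to 0.288 and 0.009 to 0.137, and against medium from 0 to 1, with mitochondrial medians from -0.024 to 0.225. At 3 mM the range was 0 to 3 against DMSO with mitochondrial medians from -0.046 to 0.189, and against medium 0 to 1 mitochondrial calls with medians from -0.057 to 0.074 and 0.015 to 0.235. For 10 mM nitroethane, cytosolic medians ran from -0.102 to 0.111 against DMSO, with 0 to 2 mitochondrial calls, and from -0.184 to -0.041 against medium. At 3 mM, cytosolic calls ran from 2 to 4 against DMSO (medians 0.228 to 0.338) and from 1 to 2 against medium (mitochondrial medians 0.091 to 0.317). For 10 mM 1-nitropropane they ran from 1 to 3 against DMSO (mitochondrial medians -0.002 to 0.127) and against medium from 0 to 4 cytosolic and 0 to 3 mitochondrial (medians -0.224 to -0.015). At 3 mM they ran from 0 to 2 (cytosolic medians 0.157 to 0.277) and, against medium, from 0 to 1 (medians -0.021 to 0.056 and -0.203 to 0.043). For the sums over low concentrations only control wells were left out. Against DMSO, these cytosolic calls ran from 5 to 16 for nitromethane, 5 to 11 for nitroethane and 11 to 13 for 1-nitropropane. Mitochondrial calls ran from 0 to 1 for the latter pair. Against medium 1-nitropropane had 0 to 3 cytosolic and 0 to 1 mitochondrial calls. Nitroethane minus nitromethane had 0 to 3.

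With the replicate number as a block, the cytosolic median for 10 mM nitromethane against DMSO was 0.222 in place of 0.156, and no count of calls moved by over 1.5 times. Deviations of same-numbered wells correlated between -0.11 and 0.428, and in no comparison were all pairs above 0.1, so the numbers were not taken to pair wells. For 1-nitropropane no such fit could be made, because its wells and the controls of set 2 share no replicate number. Low counts limit the mitochondrial class, where 11 of 16 probes had a median count under 50.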
